A study of Mus musculus with 78 samples.

Results

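A set of 40 interferon response genes was followed in mouse liver lacking Npc1 and in liver in which Npc1 had been lowered with an antisense oligo. The genes were listed by symbol, and a gene counted as measured when a probe set of the array carried its symbol and no other. Where a gene has several such probe sets, the one with the highest mean over all 78 arrays stands for it. By this rule 36 of the 40 genes were measured, among 19938 genes with such a probe set. Isg15, Gbp2 and Igtp lie on probe sets that also carry a second symbol (Gm9706, Gbp2b and Irgm2), so the signal of both genes cannot be told apart. Ifi44 was not listed in the probe annotation used here. The 36 genes all passed the filter on low values in every fit. A gene can pass it through the groups where it is high. This may hold for Oas3 and Cmpk2, whose means lay below the median of all values in most groups. Both are included in the counts of called genes.

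The livers of 78 female mice in 18 groups were each profiled on 1 Affymetrix mouse array. The age series held BALB/cNctr-Npc1m1N/J mice, Npc1-/- or Npc1+/+ littermates born to heterozygous parents, with 4 mice of each genotype at every odd week of age from 1 to 11. The labels call the Npc1-/- mice pre-symptomatic at 1 and 3 weeks and post-symptomatic at the later ages. The 12-week set held Balb/cJ mice bought from JAX, all Npc1+/+, in 6 groups of 5: untreated, fasted overnight, given a control antisense oligo, given an Npc1 antisense oligo, and each oligo combined with N-acetyl-cysteine (NAC, an antioxidant). Oligos and NAC were given during the 4 weeks before the livers were taken, starting at 8 weeks of age. The mutation is present in every cell from conception, whereas the oligo lowers the Npc1 transcript in adult mice of another supply, so age, origin, treatment and extent of loss cannot be told apart when the 2 models are set side by side. In whole liver, fewer cells of a type and less RNA per cell cannot be told apart either. Values are deposited log2 intensities, mice are numbered as in the labels, a difference is a difference of group means in log2 units with its standard error (SE), and a gene is called higher or lower at an adjusted p under 0.05 in limma.

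Type I interferons bind a receptor made of IFNAR1 and IFNAR2, whose kinases phosphorylate STAT2. With IRF9 it becomes part of a complex that binds the interferon-stimulated response element and turns on a large set of genes. Their products sense foreign nucleic acid (RIG-I, encoded by Ddx58, and MDA5, encoded by Ifih1), make the messenger 2-5A that activates RNase L (the OAS enzymes), bind viral RNA (the IFIT proteins), attach or remove the ubiquitin-like protein ISG15 (Herc6, Usp18) and feed peptides to MHC class I molecules (Tap1, Psmb8, Psmb9). Interferon gamma acts through another receptor and favours the guanylate-binding proteins and immunity-related GTPases (Gbp3, Irgm1, Iigp1). NPC1 moves cholesterol out of late endosomes and lysosomes, and in the liver its loss fills hepatocytes and Kupffer cells, the resident macrophages, with unesterified cholesterol.

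The response element is a direct repeat of GAAA spaced by 2 bases, so the letters GAAA, any 2 bases and GAAA again were searched on both strands of the RefSeq promoter windows (GRCm38.p6, 250 bases before to 50 bases after each gene's start). A window was given for 27 of the 36 genes. It held at least 1 match in 12 of the 27 (44.4%), against 1079 of 27025 genes (3.99%). The 12 genes are Ifit1, Ifit3, Stat2, Oas1a, Oas3, Ifih1, Ddx58, Eif2ak2, Rsad2, Bst2, Gbp3 and Irgm1. The STAT dimer's letters TTCNNNGAA, a palindrome, were found in 6 of the 27 (22.2%), namely Ifit2, Oas1a, Eif2ak2, Bst2, Ifi35 and Psmb8, against 2582 of the 27025 genes (9.55%). A match of one motif can share bases with the other, as in Bst2. A match describes the letters only. The stretches around the matches that lie before the start are printed because the same letters stand before genes called higher in Npc1-/- liver at 11 weeks (Rsad2, Oas1a, Oas3), genes not called at that age (Ifit1, Ifit3, Gbp3, Irgm1, Bst2) and a gene called lower (Stat2). Each is written 5′ to 3′ on the gene's own strand, with the matched bases in capitals (TTTC, 2 bases and TTTC is the same match read from the other strand).
Ifit1, chr19:34640765-34640833, plus strand: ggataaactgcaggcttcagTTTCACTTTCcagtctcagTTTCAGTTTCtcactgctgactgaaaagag
Ifit3, chr19:34583353-34583436, plus strand: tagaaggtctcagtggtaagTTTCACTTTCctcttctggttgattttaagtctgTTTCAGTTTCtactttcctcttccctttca
Rsad2, chr12:26456543-26456592, minus strand: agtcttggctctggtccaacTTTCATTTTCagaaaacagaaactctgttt
Oas1a, chr5:120907526-120907565, minus strand: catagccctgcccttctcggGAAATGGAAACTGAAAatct
Oas3, chr5:120777705-120777754, minus strand: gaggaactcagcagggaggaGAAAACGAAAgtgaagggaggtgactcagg
Gbp3, chr3:142559979-142560034, plus strand: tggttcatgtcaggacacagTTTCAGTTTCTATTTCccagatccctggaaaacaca
Irgm1, chr11:48871421-48871470, minus strand: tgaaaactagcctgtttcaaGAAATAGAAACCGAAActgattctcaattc
Stat2, chr10:128270256-128270305, plus strand: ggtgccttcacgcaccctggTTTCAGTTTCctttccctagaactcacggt
Bst2, chr8:71537567-71537622, minus strand: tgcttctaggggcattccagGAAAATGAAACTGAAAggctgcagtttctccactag
The Oas1a, Gbp3, Irgm1 and Bst2 stretches hold 2 overlapping matches each, and the Ifit1 and Ifit3 stretches 2 separate ones. Ifih1, Ddx58 and Eif2ak2 carry their matches at or after the start and are not printed.

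Npc1 itself was lower in the Npc1-/- mice at every age and in both Npc1 oligo groups. Its mean was 8.10 to 8.78 in the 6 Npc1-/- groups and 9.26 to 10.27 in the 6 Npc1+/+ groups, with no overlap at any age, and the differences ran from -1.11 to -1.72. The probe set still gave signal in the Npc1-/- mice, so it shows a lower level and not an absence. In the 12-week set Npc1 stood at 10.22 (9.98 to 10.36) with the control oligo and 7.25 (6.96 to 7.55) with the Npc1 oligo, a difference of -2.97. With NAC the corresponding means were 9.19 (8.77 to 9.96) and 7.11 (6.68 to 7.51), a difference of -2.08. In the control oligo mice Npc1 was lower with NAC (-1.03, adjusted p = 6.05e-05), and the oligo difference in Npc1 varied with NAC by 0.88 (adjusted p = 0.0145). Markers of other organs stood out in some livers: pancreatic genes averaged 9.11 and 9.09 in mice 1 and 2 of Npc1+/+ at 3 weeks, against 5.54 and 5.37 in mice 3 and 4, and skeletal muscle genes reached 9.64 in mouse 3 of Npc1-/- at 1 week. Lower levels were seen in other livers, with pancreatic genes between 6.58 and 7.04 in 6 mice (1 Npc1-/- mouse each at 1 and 5 weeks, 1 Npc1+/+ mouse each at 5, 9 and 11 weeks and 1 fasted mouse) and muscle genes at 6.81 in 1 Npc1+/+ mouse of 7 weeks.

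At 7 and 9 weeks most of the interferon response genes were higher in Npc1-/- liver, and fewer were called at 11 weeks. At 7 weeks 22 of the 36 were higher and 1 (Iigp1) was lower, where 14.3% of the 12638 genes tested were higher and 11.0% lower. At 9 weeks 29 were higher and 0 lower, against a background of 17.6% higher and 15.5% lower. The members not called at 9 weeks were Irgm1, Psmb8, Stat2, Bst2, Trim25, Ifi35 and Dtx3l, and at an unadjusted p under 0.05 the counts were 30 higher and 0 lower. At 11 weeks 9 were higher and 5 lower, while 18.8% of all genes tested were higher and 20.5% lower. With arrays centred on their median the split at 11 weeks turned to 7 higher and 8 lower. The median difference over the 36 genes was 0.50, then 0.63 and then 0.09 at these 3 ages, and the median over all genes tested lay within 0.02 of 0 at each of these ages. Counted by mice, all 4 Npc1-/- values lay above all 4 Npc1+/+ values for 20 genes at 7 weeks (background 13.8%), for 28 at 9 weeks (background 17.0%) and for 4 at 11 weeks (Usp18, Oasl1, Oas3 and Rsad2, background 16.9%). Dtx3l and Iigp1 lay below every control at 11 weeks (2 genes, background 17.4%).

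**Figure D1:**
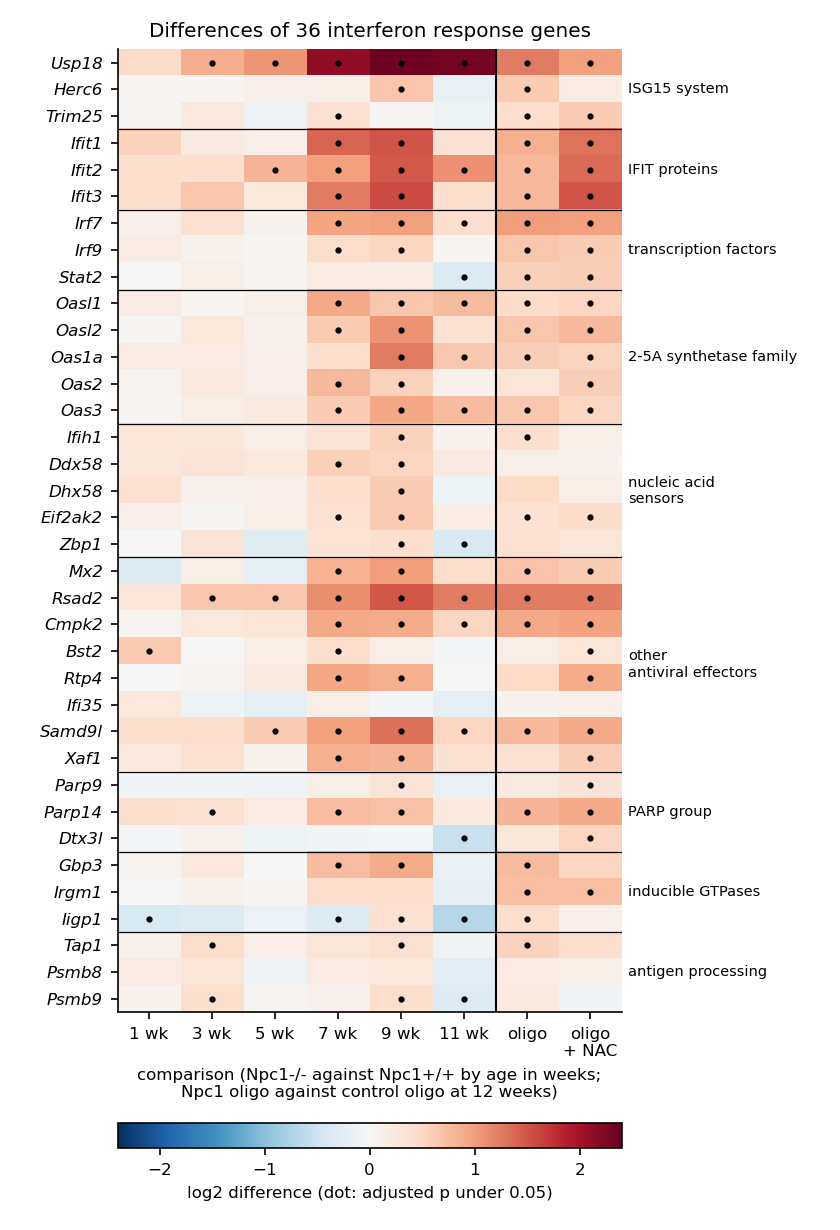
Log2 difference of the 36 measured genes, in rows grouped by role, in Npc1-/- against Npc1+/+ liver at 6 ages and in Npc1 oligo against control oligo liver without and with NAC; a dot marks an adjusted p under 0.05 in limma. The dots fill the 7-week and 9-week columns (23 and 29 genes), thin out at 11 weeks (14 genes, 5 of them lower) and fill both oligo columns (24 and 25 genes).

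Usp18, which removes ISG15 from proteins and damps signalling at the interferon receptor, had the largest genotype difference of the set at every age from 3 weeks. At 9 weeks the 4 Npc1-/- livers read 9.10, 8.80, 8.67 and 8.81, and the 4 Npc1+/+ livers read 6.64, 6.54, 6.46 and 6.38. The groups were far apart, with no mouse of one genotype near the other. The difference was 2.34 ± 0.21 (adjusted p = 1.46e-12), which is 5.06-fold. At 11 weeks the Npc1-/- livers read 8.49, 8.94, 8.39 and 9.77 and the Npc1+/+ livers 6.81, 6.75, 6.40 and 6.42. All Npc1-/- mice were again above all controls, with mouse 4 highest, and the difference was 2.31 ± 0.21 (adjusted p = 1.39e-12). Usp18 was called higher at 3 weeks (0.87 ± 0.21), 5 weeks (1.06 ± 0.21) and 7 weeks (2.13 ± 0.21) as well. Its growing difference had 2 sides: the Npc1+/+ mean went from 7.60 at 1 week to 6.51 at 9 weeks, and the Npc1-/- mean from 8.06 to 8.90 at 11 weeks. The other genes of the ISG15 system moved less. Herc6, the mouse ligase that attaches ISG15, was higher at 9 weeks only (0.67) and Trim25, a ubiquitin ligase that activates RIG-I, at 7 weeks only (0.35).

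The 3 IFIT genes, whose products bind viral RNA, were all higher at 7 and 9 weeks. Ifit3 at 9 weeks read 7.09, 7.67, 7.42 and 7.11 in Npc1-/- and 5.62, 5.93, 5.79 and 5.73 in Npc1+/+ liver, with a wide gap between the genotypes. Its difference was 1.56 ± 0.25 (adjusted p = 3.54e-06), or 2.94-fold, and Ifit1 (1.51 ± 0.26) and Ifit2 (1.48 ± 0.19) were alike. At 11 weeks Ifit3 read 6.09, 6.70, 5.20 and 7.27 against 6.41, 6.02, 5.42 and 5.90. Here the genotypes overlapped, and the Npc1-/- mice spanned from below every control (mouse 3) to above every control (mouse 4). Ifit2 alone stayed called, at 1.10 ± 0.19 (adjusted p = 7.71e-06), with 6.19, 6.46, 5.48 and 7.19 against 5.17, 5.54, 5.01 and 5.20, so that only mouse 3 fell among the controls. Ifit2 was also higher at 5 weeks (0.81 ± 0.19, adjusted p = 0.00239). The median IFIT difference was 1.25 at 7 weeks, 1.51 at the next age and 0.38 in the oldest mice. Group means of Ifit2 lay below 5.54, the median of all values in the table, in 7 groups, of Ifit3 in 2 and of Ifit1 in 1, where an array can understate a change.

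**Figure D2:**
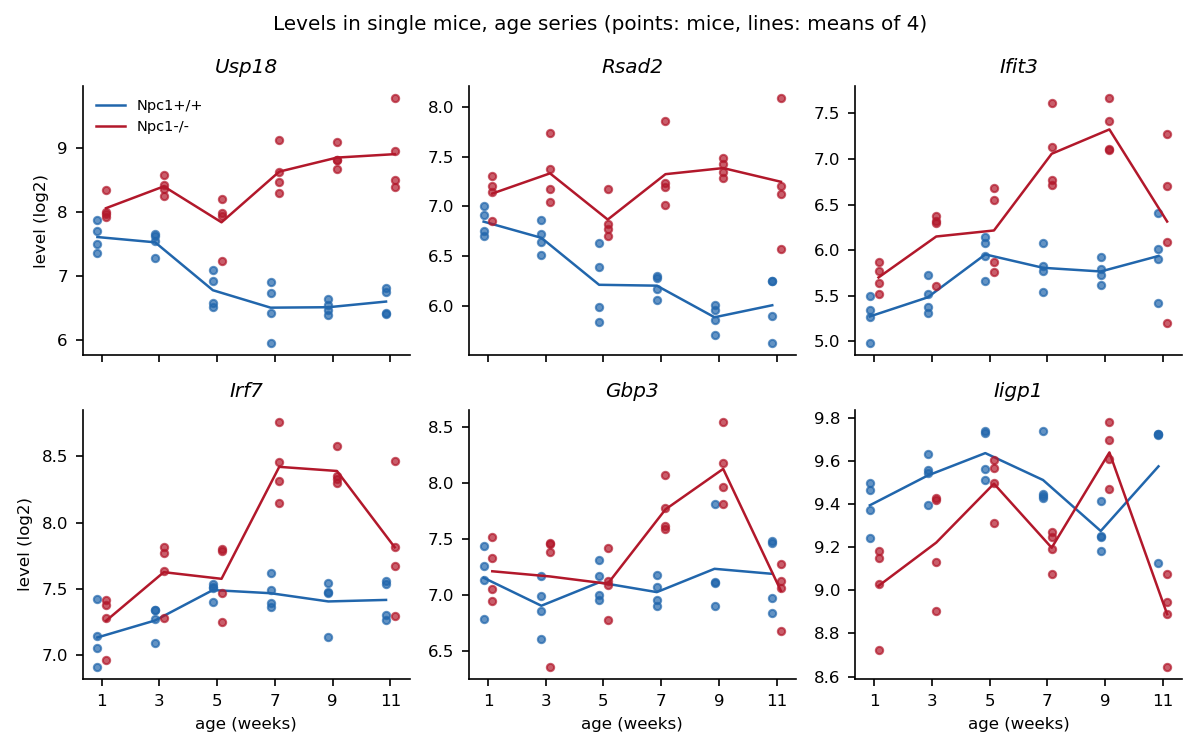
Log2 level of 6 genes in each mouse of the age series against age in weeks, with Npc1-/- and Npc1+/+ mice as points and lines through the means of 4 mice. Usp18 and Rsad2 stay separated at 11 weeks, whereas Ifit3 and Irf7 separate at 7 and 9 weeks and Gbp3 at 7 weeks, all 3 overlap at 11 weeks, and Iigp1 lies lower in Npc1-/- at 11 weeks (8.64 to 9.08 against 9.13 to 9.73).

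Of the 3 transcription factors, Irf7, which amplifies the interferon response, was higher at 7, 9 and 11 weeks. At 9 weeks it read 8.33, 8.58, 8.35 and 8.30 in Npc1-/- and 7.47, 7.47, 7.54 and 7.14 in Npc1+/+ liver, without overlap, and the difference was 0.98 ± 0.15 (adjusted p = 1.89e-06). At 11 weeks it read 7.67, 7.82, 7.30 and 8.47 against 7.56, 7.54, 7.31 and 7.27, where only mouse 3 lay among the controls, and the difference was 0.40 ± 0.15 (adjusted p = 0.0368). This call was lost without Npc1-/- mouse 2 or 4 or Npc1+/+ mouse 3 or 4 of that age, and the difference was 0.18 without Npc1-/- mouse 4. Irf9, the DNA-binding part of the STAT complex, was higher at 7 weeks (0.42) and 9 weeks (0.52). Stat2, its partner, was not called higher at any age and was lower at 11 weeks (-0.33 ± 0.11, adjusted p = 0.0125). The Stat2 values at 11 weeks were 8.40, 8.47, 8.13 and 8.39 against 8.65, 8.94, 8.33 and 8.78, with 1 control, mouse 3, inside the Npc1-/- range, and the call was lost without Npc1-/- mouse 3 or Npc1+/+ mouse 2.

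The 2-5A synthetase family was higher as a whole at 9 weeks, with 5 of 5 genes called. Oas1a read 7.01, 7.34, 7.24 and 7.08 in Npc1-/- and 6.26, 5.68, 5.60 and 6.14 in Npc1+/+ liver at that age. The genotypes did not overlap, and the difference was 1.25 ± 0.21 (adjusted p = 4.85e-06). Oasl2 (1.07), Oas3 (0.93), Oasl1 (0.64) and Oas2 (0.56) had smaller differences. Oasl1, which curbs Irf7 translation, was one of the genes that held at 11 weeks: it read 7.22, 7.30, 6.74 and 7.86 against 6.40, 6.63, 6.58 and 6.43. Even the lowest Npc1-/- mouse was above the highest control, and the difference was 0.77 ± 0.13 (adjusted p = 7.13e-06). Oas3 (0.77 ± 0.15) and Oas1a (0.64) were the other members of the family called at 11 weeks, although Oas3 had group means below 5.54 in 13 of the 18 groups. These included every Npc1+/+ group and both control oligo groups, so Oas3 can have entered the fits through the groups where it is high.

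The 5 sensors of foreign nucleic acid were all higher at 9 weeks and none was higher at 11 weeks. Ddx58 read 8.51, 8.80, 8.64 and 8.50 in Npc1-/- and 8.02, 8.18, 8.11 and 8.04 in Npc1+/+ liver at 9 weeks, a narrow but complete separation with a difference of 0.52. Eif2ak2, the kinase that stops translation on double-stranded RNA, differed by 0.62, Dhx58 by 0.61, Ifih1 by 0.56 and Zbp1, a sensor of Z-form nucleic acid, by 0.40. At 11 weeks Zbp1 was lower (-0.37). Ddx58 (0.58) and Eif2ak2 (0.36) were the 2 sensors already higher at 7 weeks.

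Among the other antiviral effectors, Rsad2, which encodes viperin, was the most persistent. At 9 weeks it read 7.35, 7.43, 7.48 and 7.28 in Npc1-/- and 5.86, 6.01, 5.96 and 5.71 in Npc1+/+ liver, a tight and complete separation with a difference of 1.50 ± 0.19 (adjusted p = 2.71e-08; 2.83-fold). At 11 weeks it read 7.20, 7.13, 6.57 and 8.09 against 6.25, 5.90, 5.63 and 6.25, still without overlap (1.24 ± 0.19, adjusted p = 8.81e-07). Samd9l, an antiviral protein that restricts translation, read 7.09, 7.14, 6.98 and 7.04 against 5.44, 6.01, 5.98 and 5.51 at 9 weeks, with a difference of 1.33 ± 0.17 that shrank to 0.52 at 11 weeks. Mx2 (1.01), Cmpk2 (0.89), Rtp4 (0.85) and Xaf1 (0.81) were higher at 9 weeks too. Of these, Cmpk2, the mitochondrial nucleotide kinase next to Rsad2 in the genome, was the one called at 11 weeks (0.52). Its group means lay below 5.54 in 11 of the 18 groups, among them every Npc1+/+ group of the age series and both control oligo groups. Cmpk2 can thus have entered the fits through the groups where it is high. Bst2, which encodes tetherin, was higher at 7 weeks (0.39), and Ifi35 was not called at any age. Mouse 3 of Npc1-/- at 7 weeks was the highest of its group in 31 of the 36 genes (Mx2 read 6.12, 6.02, 8.20 and 7.21), and without it 17 genes were higher at 7 weeks and Iigp1 was not called.

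The genes tied to antigen processing, the inducible GTPases and the PARP group moved in both directions. Gbp3 read 7.81, 8.55, 8.18 and 7.96 in Npc1-/- and 7.12, 7.82, 7.10 and 6.89 in Npc1+/+ liver at 9 weeks, with the highest control, mouse 2, inside the Npc1-/- range, and differed by 0.89 ± 0.20 (adjusted p = 0.000474). At 11 weeks it read 7.06, 7.12, 6.67 and 7.28 against 7.47, 7.48, 6.83 and 6.97, which overlap. Iigp1, an immunity-related GTPase that acts on pathogen vacuoles, read 9.78, 9.70, 9.61 and 9.47 against 9.25, 9.42, 9.19 and 9.25 at 9 weeks. All Npc1-/- mice were then higher (0.37 ± 0.12, adjusted p = 0.0136). At 11 weeks it read 8.89, 9.08, 8.64 and 8.95 against 9.73, 9.73, 9.13 and 9.72, so all Npc1-/- mice were lower (-0.69 ± 0.12, adjusted p = 5.1e-06; 1.61-fold). Iigp1 was lower at 1 week (-0.37 ± 0.12, adjusted p = 0.0475) and 7 weeks (-0.31 ± 0.12, adjusted p = 0.0425) as well, and averaged over the 6 ages it was the only one of the 36 genes that was lower (-0.24 ± 0.05). The 7-week call of Iigp1 was lost without any 1 of the Npc1-/- mice or Npc1+/+ mouse 3 or 4 of that age, and its 9-week call without Npc1-/- mouse 1. Irgm1 was not called at any age.

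In the PARP group, Parp14 was higher at 3, 7 and 9 weeks (0.37, 0.75 and 0.70). It read 8.08, 8.23, 8.16 and 8.03 in Npc1-/- and 7.37, 7.49, 7.56 and 7.27 in Npc1+/+ liver at 9 weeks, without overlap. Dtx3l, the ubiquitin ligase that pairs with Parp9, was not higher at any age, and at 11 weeks it read 7.47, 7.46, 7.17 and 7.73 against 8.12, 8.14, 7.94 and 7.79. Every Npc1-/- mouse was below every control, and the difference was -0.54 ± 0.13 (adjusted p = 0.000849). Of the antigen processing genes, the peptide transporter gene Tap1 was higher at 3 weeks (0.42) and 9 weeks (0.36). The immunoproteasome gene Psmb9 was higher at 3 and 9 weeks (0.39 and 0.42) and lower at 11 weeks (-0.31), and its partner Psmb8 was not called at any age.

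In the young Npc1-/- mice few interferon response genes were called. At 1 week Bst2 was higher (0.63 ± 0.14, adjusted p = 0.00287) and Iigp1 lower. That is 1 gene in each direction, close to the shares of all genes (2.91% higher and 2.78% lower). The counts were 1 higher and 0 lower with centred arrays and 2 higher and 0 lower after quantile normalization. At an unadjusted p under 0.05 in limma they were 8 higher and 1 lower. The Bst2 values were 9.04, 8.72, 8.85 and 9.24 in Npc1-/- and 8.72, 8.67, 8.02 and 7.94 in Npc1+/+ liver. The low controls were mice 3 and 4, which carry original names from a separate run of numbers, and without both of them neither call remained. The Iigp1 call was lost in 23 of the 48 fits that leave out 1 mouse. At 3 weeks Usp18, Rsad2, Tap1, Psmb9 and Parp14 were higher and 0 genes lower (14 higher and 1 lower at an unadjusted p under 0.05; background 8.90% higher and 6.84% lower), and with centred arrays 4 were higher and 1 lower. Rsad2 read 7.37, 7.17, 7.05 and 7.74 against 6.64, 6.86, 6.52 and 6.72, without overlap. The 3-week count rested on single mice: it was 11 without Npc1-/- mouse 1, which had the lowest value of its group in 29 of the 36 genes. It was 2 without Npc1-/- mouse 4 (1 higher and 1 lower) or Npc1+/+ mouse 3 (2 higher and 0 lower). It was 3 without Npc1-/- mouse 3 or Npc1+/+ mouse 2, and 1 without the 2 Npc1+/+ mice with pancreatic genes. At 5 weeks Usp18, Ifit2, Rsad2 and Samd9l were higher and 0 genes lower (4 and 0 unadjusted; background 9.69% higher and 2.88% lower), and 2 genes were called without Npc1-/- mouse 2.

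Over the whole series 31 of the 36 genes were higher in Npc1-/- liver at 1 age or more (29.6% of all genes tested) and 24 at 2 ages or more (17.9%). Usp18 and Rsad2 were higher at 5 of the 6 ages and Ifit2 and Samd9l at 4. Ifi35, Irgm1 and Psmb8 were called at 0 ages. In absolute size the difference was largest at 9 weeks for 20 genes, at 7 weeks for 9, at 3 weeks for 2 and at 1 week for 2, and at 11 weeks for the 3 whose difference there was negative, Dtx3l, Iigp1 and Stat2. The genotype difference varied between ages for 24 genes (background 27.7%), led by Usp18 (adjusted p = 2.79e-07), Iigp1 (0.000122), Oasl1 (0.000473) and Irf7 (0.00128). Averaged over the 6 ages, 27 genes were higher and 1 lower (background 26.0% higher and 26.6% lower), with Usp18 at 1.53 ± 0.08 and Rsad2 at 0.91 ± 0.08.

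The fall in calls from 9 to 11 weeks was tested as the change of the genotype difference between these ages, a contrast chosen after the data had been seen. It was negative and called for 6 genes and positive for 0 (25 and 0 at an unadjusted p under 0.05), where 2.23% of all genes were called negative and 0.870% positive. The 6 were Iigp1 (-1.05 ± 0.17, adjusted p = 6.53e-05), Gbp3 (-1.05 ± 0.28, adjusted p = 0.0274), Herc6 (-0.85 ± 0.18), Zbp1 (-0.77 ± 0.21), Psmb9 (-0.73 ± 0.16) and Parp9 (-0.50 ± 0.14). Ifit3 and Ifit1 had larger point estimates but missed the threshold (-1.18, adjusted p = 0.0568, and -1.16, adjusted p = 0.0707). All 9 genes higher at 11 weeks were higher at 9 weeks too, namely Cmpk2, Ifit2, Irf7, Oas1a, Oas3, Oasl1, Rsad2, Samd9l and Usp18. A further 20 genes called higher at 9 weeks were not called higher at 11 weeks.

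The 11-week Npc1-/- mice differed widely among themselves. Their means over the 36 genes were 7.15, 7.36, 6.89 and 7.71 for mice 1 to 4, with mouse 3 the lowest in 30 genes and mouse 4 the highest in 30. Without mouse 4 the 11-week counts were 5 higher and 6 lower, and without mouse 3 they were 14 higher and 3 lower. The genes past the threshold at 11 weeks whichever single mouse was left out were Usp18, Rsad2, Ifit2, Oasl1, Oas3, Dtx3l and Iigp1. The change from 9 to 11 weeks moved as well: it was called for 16 genes without Npc1-/- mouse 4 of 11 weeks and 10 without Npc1+/+ mouse 3 of 11 weeks. It was called for 3 genes without Npc1-/- mouse 3 of 11 weeks, Npc1+/+ mouse 1 or 2 of 11 weeks, Npc1-/- mouse 2 of 9 weeks or Npc1+/+ mouse 3 of 9 weeks.

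Age was also tested within each genotype, and in Npc1+/+ liver the share of the 36 genes that varied lay below that of all genes. In Npc1+/+ liver 11 of the 36 genes varied with age (background 53.3%), and in Npc1-/- liver 34 did (background 55.6%), all but Trim25 and Rsad2. Bst2 went from a mean of 8.34 at 1 week to 9.37 at 3 weeks and 9.60 at 11 weeks in Npc1+/+ mice (adjusted p = 1.45e-10), and Parp14 from 6.73 to 7.47 (adjusted p = 2.84e-05). Usp18 went the other way, as did Rsad2, from 6.85 at 1 week to 6.01 at 11 weeks (adjusted p = 0.000129), and Zbp1, from 7.39 at 1 week to 6.34 at 3 weeks (adjusted p = 2.23e-06). Rsad2 was thus not called for age in the Npc1-/- mice while its level went down with age in the controls. The mean over all 36 genes stayed between 6.96 and 7.08 in the 6 Npc1+/+ groups, and in Npc1-/- it was 7.14, 7.19, 7.20, 7.63, 7.75 and 7.28 from 1 to 11 weeks.

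Interferon response genes were also higher in mice given the Npc1 antisense oligo for 4 weeks than in mice given the control oligo. Effects of the lower Npc1 and of the oligo itself cannot be told apart in this comparison. Against the control oligo, 24 of the 36 genes were higher and 0 lower (29 and 0 at an unadjusted p under 0.05), where 14.7% of the 11900 genes tested were higher and 7.88% lower. All 36 differences were positive, the median was 0.56 and the values of all 5 Npc1 oligo mice lay above those of all 5 control oligo mice for 21 genes (background 10.9%). With NAC in both arms, which are other mice, 25 were higher and 0 lower (27 and 0 unadjusted; background 11.0% higher and 14.7% lower), with the same median of 0.56 and a complete separation for 14 genes (background 4.04%).

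**Figure D3:**
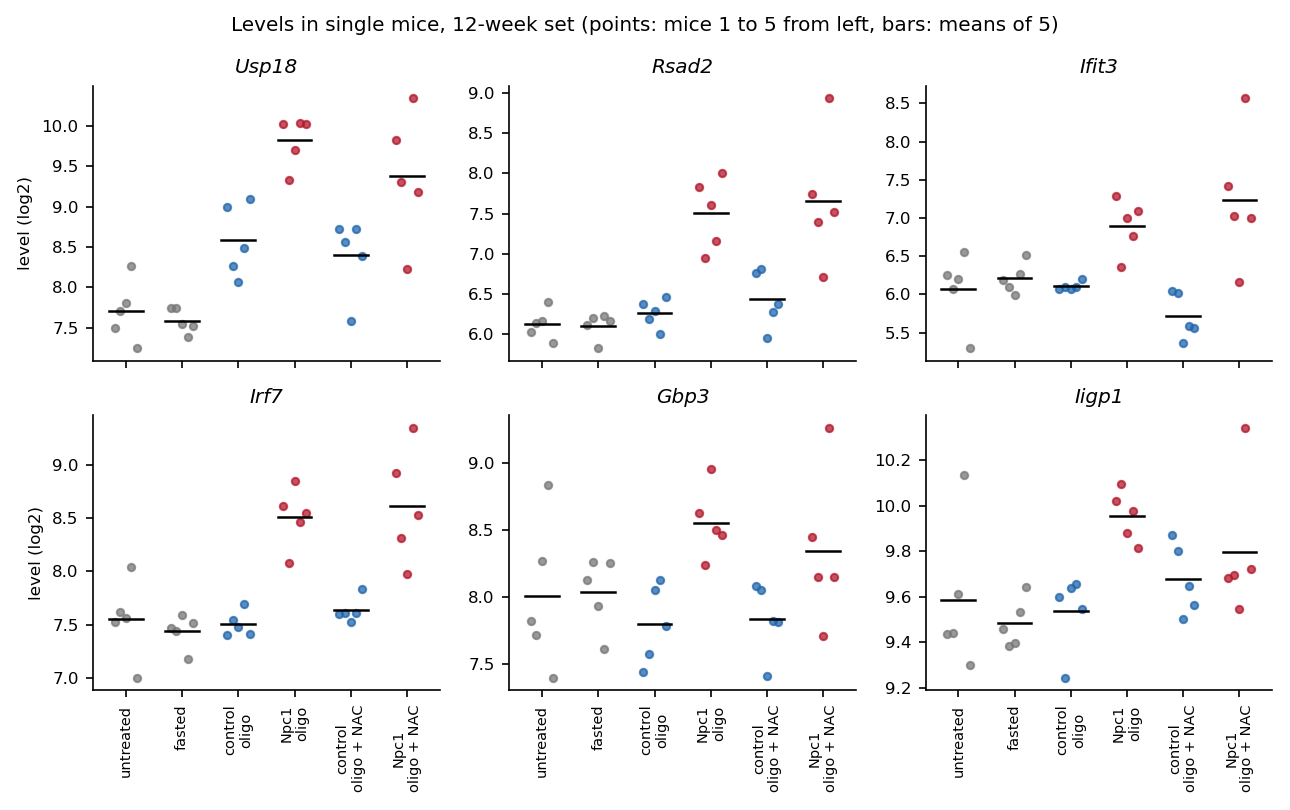
Log2 level of 6 genes in each mouse of the 6 groups at 12 weeks, with points for mice 1 to 5 from left to right and bars at the means of 5. Every mouse of both Npc1 oligo groups lies above its control oligo group for Ifit3 and Irf7, while for Rsad2 with NAC the groups overlap (mouse 3 at 6.72, controls up to 6.81), and in the Npc1 oligo group with NAC mouse 3 is low and mouse 4 high in nearly every gene.

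Rsad2 and Usp18 led the oligo response. Rsad2 read 7.83, 6.95, 7.60, 7.16 and 8.00 with the Npc1 oligo and 6.38, 6.19, 6.29, 6.00 and 6.46 with the control oligo, without overlap, and the difference was 1.24 ± 0.24 (adjusted p = 0.000314; 2.37-fold). Usp18 read 10.02, 9.34, 9.71, 10.04 and 10.02 against 9.00, 8.27, 8.07, 8.49 and 9.09, also without overlap (1.24 ± 0.27, adjusted p = 0.000909). Irf7 read 8.61, 8.07, 8.84, 8.47 and 8.54 against 7.41, 7.55, 7.48, 7.70 and 7.42, a clear gap of 1.00 ± 0.17 (adjusted p = 9.62e-05). Cmpk2 differed by 0.90 ± 0.20, Ifit1 by 0.85, Ifit2 by 0.80 and Ifit3 by 0.79 ± 0.26. By role, 3 of 3 IFIT genes, 3 of 3 transcription factors, 3 of 3 genes of the ISG15 system, 3 of 3 GTPases and 4 of 5 synthetases were higher. The count was 2 of 5 among the sensors, 4 of 8 among the other effectors, and 1 of 3 each in the PARP and antigen processing groups. Iigp1, lower in Npc1-/- liver at 11 weeks, was higher with the oligo: 10.02, 10.09, 9.88, 9.98 and 9.81 against 9.60, 9.25, 9.64, 9.66 and 9.55, with no overlap and a difference of 0.42 ± 0.13 (adjusted p = 0.0164). That call was lost without control oligo mouse 2, and the Ifit3 call without Npc1 oligo mouse 1, 3 or 5. Irgm1 (0.71) and Stat2 (0.56), neither of them higher at any age of the Npc1-/- series, were higher with the oligo. Stat2 and Trim25 were, however, low in the control oligo mice compared with untreated mice, as given below.

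With NAC the IFIT genes had the largest oligo differences. Ifit3 read 7.41, 7.02, 6.16, 8.56 and 7.00 with the Npc1 oligo and NAC, and 6.05, 6.02, 5.36, 5.58 and 5.56 with the control oligo and NAC. Mouse 3 was just above the highest control and mouse 4 well above all others, and the difference was 1.52 ± 0.26 (adjusted p = 4.62e-05; 2.86-fold). Ifit2 differed by 1.35 ± 0.24, Ifit1 by 1.31 ± 0.26, Rsad2 by 1.22 ± 0.24, Irf7 by 0.98 ± 0.17 and Usp18 by 0.98 ± 0.27. Usp18 read 9.83, 9.31, 8.23, 10.34 and 9.18 against 8.72, 8.56, 7.58, 8.72 and 8.39, and mouse 3 of the Npc1 oligo group lay among the controls. The genes called higher by role were 5 of 5 synthetases, 3 of 3 IFIT genes, 3 of 3 transcription factors, 3 of 3 of the PARP group, 7 of 8 other effectors, 2 of 3 of the ISG15 system, 1 of 5 sensors, 1 of 3 GTPases and 0 of 3 antigen processing genes. In this group mouse 3 was the lowest in 33 of the 36 genes and mouse 4 the highest in 35, with means over the 36 genes of 7.29 and 8.67. Without mouse 4 the count with NAC was 18.

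A difference between the oligo effects with and without NAC was not shown for any of the 36 genes: the interaction was called for 0 in limma (0 at an unadjusted p under 0.05; background 1.15% higher and 3.68% lower), and for 2 genes, both lower, without mouse 4 of the Npc1 oligo group with NAC. The 2 lists of called genes shared 19 genes, 79.2% of the first and 76.0% of the second. The overlap of the 2 comparisons over all genes was not counted, so these shares cannot be read as particular to the interferon response genes. NAC itself called 0 genes in the control oligo mice in limma (3 higher and 0 lower at an unadjusted p under 0.05; background 6.09% higher and 2.41% lower), where differences ran from -0.39 to 0.43. In the Npc1 oligo mice it called Dtx3l (0.44 ± 0.11, adjusted p = 0.017) and Trim25 (0.42 ± 0.11, adjusted p = 0.0181) as higher and 0 as lower (8 and 0 unadjusted; background 2.88% higher and 4.27% lower). Dtx3l read 8.70, 8.59, 8.37, 9.09 and 8.33 with NAC and 8.22, 8.23, 8.52, 8.00 and 7.93 without, and mice 3 and 5 with NAC lay within the range of those without. This pair was not stable: 0 genes were called without Npc1 oligo mouse 4 or 5, 6 without mouse 3 of the group with NAC, and without mouse 4 of that group both were past the threshold no longer (Dtx3l 0.32 and Trim25 0.34, adjusted p = 0.0594 for each). In that last fit 2 other genes were called instead, both of them lower with NAC. These NAC comparisons share their samples with the oligo comparisons.

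Overnight fasting called 0 of the 36 genes in limma (0 at an unadjusted p under 0.05; background 0.210% higher and 0.319% lower). Differences from untreated mice ran from -0.32 to 0.16. Usp18 read 7.75, 7.74, 7.54, 7.38 and 7.53 in fasted and 7.49, 7.71, 7.81, 8.26 and 7.24 in untreated mice, which overlap. Mouse 4 of the untreated group was the highest in 32 of the 36 genes, with a mean of 7.68 where the group's mean was 7.30.

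Some of these genes differed between the control oligo and untreated mice. Against untreated mice 1 gene was higher and 5 lower, where 5.05% of all genes were higher and 21.3% lower. Usp18 was the higher gene (0.88 ± 0.27, adjusted p = 0.0143), with every control oligo mouse above every untreated mouse except that mouse 3 (8.07) was below untreated mouse 4 (8.26). Trim25 read 8.00, 7.77, 8.14, 8.32 and 8.08 against 8.82, 8.77, 8.77, 8.89 and 8.76, with all treated mice lower (-0.74 ± 0.11, adjusted p = 2.32e-05). Stat2 read 7.88, 7.82, 8.32, 8.50 and 7.74 against 8.73, 8.76, 8.55, 8.98 and 8.51, also all lower (-0.65 ± 0.14, adjusted p = 0.00125). Parp14 (-0.50 ± 0.16), Dtx3l (-0.31 ± 0.11) and Irf9 (-0.30 ± 0.11) were the others. Leaving out untreated mouse 4, control oligo mouse 2 or control oligo mouse 5 reduced the count to 3. The control oligo mice enter both this comparison and that of the Npc1 oligo, so values that were low in them count in both: Trim25, Stat2, Parp14 and Irf9 were lower than in untreated mice and then higher with the Npc1 oligo (0.40, 0.56, 0.81 and 0.67). For Trim25 and Stat2 the second difference was smaller in size than the first (-0.74 and -0.65). Their means with the Npc1 oligo thus stayed below the untreated means.

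Set side by side, the 11-week genotype difference and the 4-week oligo difference without NAC were not the same for 14 genes. The genotype difference was the larger for 1 and the smaller for 13, where 11.7% and 16.0% of the 12748 genes tested were larger and smaller. Usp18 was the gene with the larger genotype difference (by 1.06 ± 0.35, adjusted p = 0.0158). That call was lost without Npc1-/- mouse 4 of 11 weeks, where the genotype difference was the larger for 0 genes and the smaller for 17. It was also lost at an adjusted p under 0.01. Among the 13, Iigp1 differed by -1.11 ± 0.18 (adjusted p = 7.7e-07), Irgm1 and Gbp3 by -0.91 each (± 0.27 and ± 0.31) and Stat2 by -0.89 ± 0.18. Dtx3l, Herc6, Zbp1, Tap1, Irf9, Parp14, Psmb9, Trim25 and Parp9 made up the rest, from -0.80 to -0.41. The count was 9 without Npc1+/+ mouse 1 of 11 weeks or Npc1 oligo mouse 3 and 7 without Npc1+/+ mouse 2 of 11 weeks. In all, 17 genes were called higher at 1 age or more and in both oligo comparisons, as were 4.58% of the 11859 genes tested in both fits.

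The genes that start and carry the pathway were looked at from fixed lists. Of 13 interferons and receptor chains on the array, Ifna2, Ifna4, Ifnb1, Ifnk, Ifne, Ifng and Ifnlr1 lay below 5.54, the median of the table, in every group. The ligand gene Ifnl2 lay above it, with group means from 7.68 to 8.22. Il10rb, a chain shared by the interferon lambda and interleukin-10 receptors, was higher by 2.34 ± 0.10 at 11 weeks (adjusted p = 3.14e-23), Ifngr1 by 1.08 ± 0.13 and Ifngr2 by 0.93 ± 0.10, while Ifnar2 was lower (-0.25 ± 0.08, adjusted p = 0.0111). In this list of 7 tested genes 3 were higher from 3 to 11 weeks, where the share of all genes called higher went from 8.90% at 3 weeks to 18.8% at 11 weeks. Among 13 JAK, STAT and IRF genes outside the 36, 3 were higher and 2 lower at 9 weeks, close to the shares over all genes (17.6% and 15.5%), and 5 higher and 1 lower at 11 weeks (18.8% and 20.5%). Irf8, a macrophage factor, was higher by 1.29 ± 0.09 and Irf5 by 1.12 ± 0.12 at 11 weeks, and Irf3 was lower (-0.61 ± 0.08). Of 12 further sensors and adaptors 8 were higher and 1 lower at 11 weeks (the same background). Tlr8 differed by 2.05 ± 0.15 and Tlr7, which senses single-stranded RNA in endosomes, by 1.92 ± 0.17. In Npc1+/+ liver at 11 weeks 5 of the 13 genes on the array, Tlr7 and Tlr8 among them, had means below 5.54, against 2 in Npc1-/- liver. Such genes can enter the fit through the groups where they are high, and the count of 8 includes Tlr7 and Tlr8. The lower one was Mavs, the adaptor of RIG-I and MDA5 (-0.48 ± 0.12). With the Npc1 oligo Mavs was higher instead (0.50, adjusted p = 3.01e-05).

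A second list held 46 other interferon-induced genes, 36 of them on the array and 30 tested in the age series. Of the 30, 16 were higher and 0 lower at 7 weeks (all genes: 14.3% and 11.0%), 19 higher and 1 lower at 9 weeks (17.6% and 15.5%), and 14 higher and 5 lower at 11 weeks (18.8% and 20.5%). Slfn2 (1.80 ± 0.13, adjusted p = 2.55e-15), Cd274, which encodes PD-L1 (1.31), Tor3a (1.27) and Lgals3bp (1.10) were among the higher genes at 11 weeks. The chemokine gene Cxcl10 differed by 1.35 at 7 weeks, 1.11 at 9 weeks and 0.40 at 11 weeks, the last not past the threshold (adjusted p = 0.159). Its neighbour Cxcl9, which responds mainly to interferon gamma, was lower at 11 weeks (-0.84 ± 0.16), as were Ube2l6, the ISG15 conjugating enzyme (-0.80 ± 0.13), and Ifitm3 (-0.50 ± 0.09). With the Npc1 oligo 13 of 29 tested genes of this list were higher and 0 lower (all genes: 14.7% and 7.88%), and with NAC 14 were higher and 2 lower (11.0% and 14.7%). The list of 9 MHC class I genes had 3 higher and 0 lower at 9 weeks and 2 higher and 2 lower at 11 weeks, a share close to that of all genes at 11 weeks (18.8% and 20.5%).

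Macrophage markers moved with the interferon response genes for part of the series. The mean of 9 macrophage markers was 7.87 to 9.33 in the 6 Npc1-/- groups, with a higher mean at each age from 3 weeks on, and in Npc1+/+ it was 7.80 at 1 week and 6.98 to 7.13 later. At 9 weeks the Npc1-/- mean was 9.11 (8.96 to 9.24) and at 11 weeks 9.33 (9.24 to 9.41), so the macrophage markers did not drop at 11 weeks when the mean of the 36 genes went from 7.75 to 7.28. All 9 macrophage genes were called higher at both ages (all genes: 17.6% at 9 weeks and 18.8% at 11 weeks). The resident Kupffer cell markers went the other way, from 7.28 at 1 week to 6.26 at 11 weeks in Npc1-/- against 7.48 to 7.79 in Npc1+/+. In the 12-week set the macrophage mean was 7.42 untreated, 7.98 with the control oligo (6 of 9 genes higher than untreated), 8.74 with the Npc1 oligo and 8.73 (8.05 to 9.19) with the Npc1 oligo and NAC. Plasmacytoid dendritic cells are known as strong interferon producers, and 6 of their 7 listed markers were on the array. The mean of the 6 was higher in Npc1-/- than in Npc1+/+ liver at every age (5.75 against 5.37 at 9 weeks) and with the Npc1 oligo (5.75 against 5.43, and 5.88 against 5.36 with NAC). Of 4 markers tested, 1 was called higher at each age from 1 to 9 weeks and in both oligo comparisons, and 2 at 11 weeks. The shares of all genes called higher were 2.91% at 1 week, 17.6% at 9 weeks and 18.8% at 11 weeks, and 14.7% and 11.0% for the oligo without and with NAC. Ly6d had by far the widest range of group means among the 6, from 5.84 to 9.08, the highest in the Npc1 oligo group with NAC. Cox6a2 (5.84 to 6.28) and Cd300c (5.61 to 6.00) were above 5.54 in every group. The defining markers Siglech (4.94 to 5.31) and Ccr9 (3.62 to 3.95) and the marker Pacsin1 were below it in every group. T cell markers averaged 4.92 to 5.23 and NK cell markers 3.96 to 4.41 over the groups, and hepatocyte markers, which define the labelled tissue, 12.3 to 12.8. The part of these cells in the interferon gene differences was not tested.

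**Figure D4:**
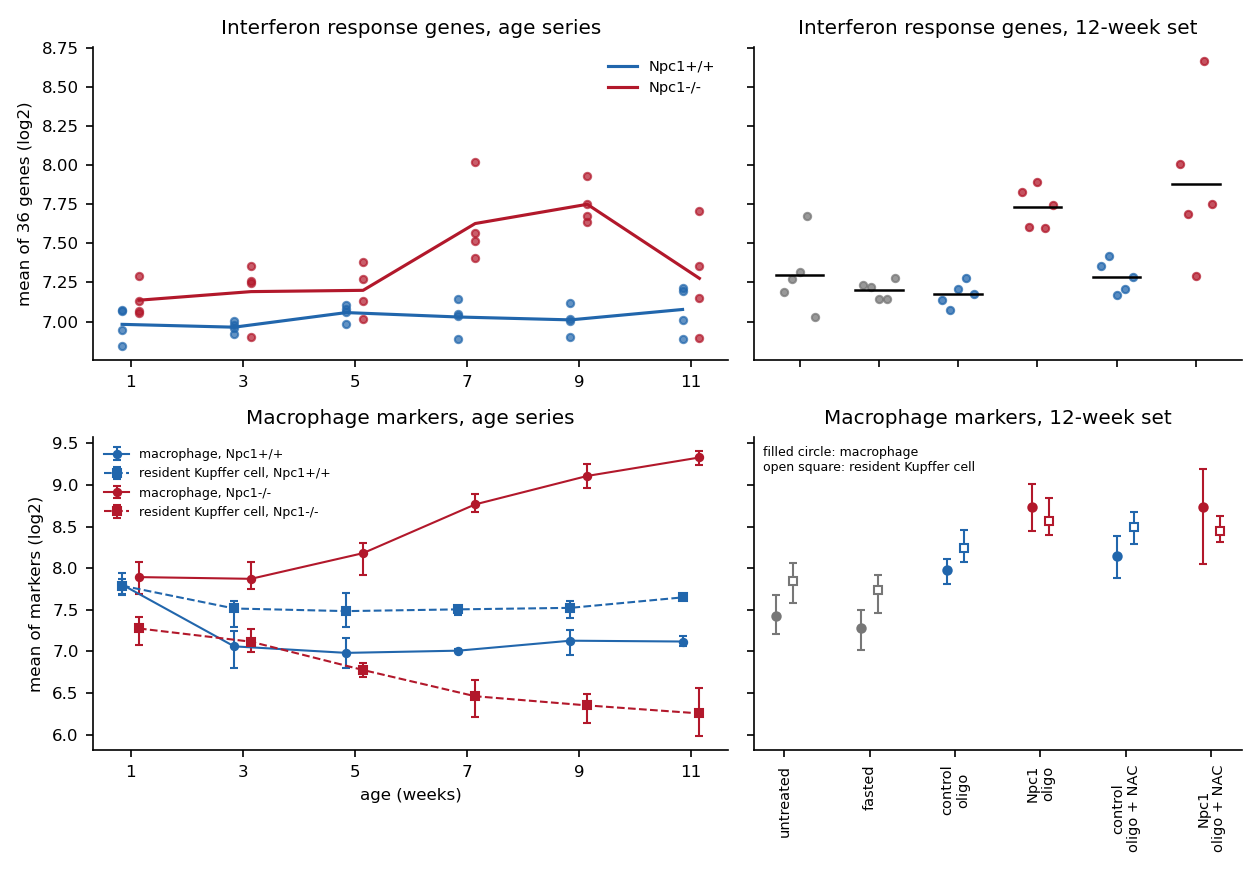
Mean log2 level of the 36 measured interferon response genes in each mouse, and of the macrophage and resident Kupffer cell markers per group with bars from the lowest to the highest mouse. In Npc1-/- liver the interferon gene mean peaks at 9 weeks (7.75) and is 7.28 at 11 weeks while the macrophage marker mean goes on from 9.11 to 9.33.

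The probe sets that carry a second symbol did not all go one way. The one carrying Isg15 and Gm9706 averaged 6.73 in Npc1-/- and 5.95 in Npc1+/+ liver at 9 weeks, that carrying Oas1a and Oas1g 7.48 and 6.18, and that carrying Gbp2 and Gbp2b 6.98 and 5.89 at 7 weeks. That carrying Igtp and Irgm2 averaged 8.30 in Npc1-/- and 7.99 in Npc1+/+ liver at 9 weeks but 7.86 and 8.19 at 5 weeks and 7.32 and 7.90 at 11 weeks. These values are given without a test.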

How the data were processed

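The deposited values are log2 expression values of 35556 probe sets on 78 Affymetrix mouse arrays, one per liver. They run from 1.79 to 14.6, and array medians lie between 5.35 and 5.65. Per the submitters' processing notes, the tools were RMA and Partek 6.5, with no role or order stated, so the authors' exact normalization is not given in the sources used here. The number of arrays limits the precision. Probe sets were named through the platform annotation (21789 with 1 symbol, 1621 with several, 12146 not listed), and of several probe sets of a gene the one with the highest mean was used. Per the labels' protocols, TRIzol and then RNeasy columns gave the RNA, from frozen livers or, at 12 weeks, from livers that were frozen or kept in RNAlater.

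Differences were tested two-sided with limma 3.58.1 in R 4.3.3, with 1 mean per group, over 48 arrays of the age series, 30 arrays of the 12-week set or, to compare the 2, all 78. A gene entered a fit when 4 or more arrays had a value above 5.54, the median of the whole table. P-values were adjusted by Benjamini-Hochberg over all genes tested, at a threshold of 0.05. The background is the share of all genes tested that met the same rule. The fit was tested on simulated data. The members and lists were chosen with earlier results of these data known. Named genes are Npc1, the 4 called members with the largest change in each comparison, the member of each role with the largest averaged genotype difference and up to 4 genes per pathway list and comparison. Other members are named from counts, after their values were seen. Alternatives were other thresholds, filters, normalizations and samples, and leaving out each mouse.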

Additional observations from a re-analysis of the deposited data

Results flagged for a closer look

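In 26 of 450 groups of 4 or 5 mice (1 gene in 1 group each), 1 mouse stood farther from its nearest neighbour than Dixon's critical value allows, and chance flags about 1 in 20 groups. In the age series these were, high, Bst2 (10.16), Samd9l (7.57) and Zbp1 (7.22) in mouse 3 of Npc1-/- at 7 weeks, Oasl1 (7.53) in mouse 2 of Npc1-/- at 9 weeks, Iigp1 (9.74) in mouse 3 of Npc1+/+ at 7 weeks, Irgm1 (8.53) in mouse 2 of Npc1+/+ at 9 weeks and Trim25 (8.95) in mouse 4 of Npc1+/+ at 5 weeks. Low ones were Gbp3 (6.35) and Ifit3 (5.61) in mouse 1 of Npc1-/- at 3 weeks, Trim25 (8.44) in mouse 3 of Npc1-/- at 1 week, Cmpk2 (5.07) in mouse 3 of Npc1+/+ at 9 weeks, and Ifit1 (5.77) and Iigp1 (9.13) in mouse 3 of Npc1+/+ at 11 weeks. Parp14 (6.99) in mouse 4 and Stat2 (8.60) in mouse 3 of Npc1+/+ at 3 weeks and Stat2 (8.52) in mouse 2 of Npc1+/+ at 5 weeks were low too. In the 12-week set, untreated mouse 4 was high for Ddx58 (8.91) and Zbp1 (7.88), and mouse 4 of the Npc1 oligo group with NAC for Ddx58 (9.18) and Iigp1 (10.34). Control oligo mice were high for Ifit3 (6.20, mouse 5) and Tap1 (7.36, mouse 4) and low for Bst2 (9.44, mouse 1) and Iigp1 (9.25, mouse 2). Irf7 was high in mouse 5 of the control oligo group with NAC (7.83), and Rsad2 low in fasted mouse 3 (5.83).

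The genotype difference varied between ages for 24 of the 36 genes. Between 9 and 11 weeks it changed for 6, of which Iigp1 (-1.05), Gbp3 (-1.05), Herc6 (-0.85), Zbp1 (-0.77) and Psmb9 (-0.73) had the largest changes. Between the 11-week genotype difference and the oligo difference 14 genes differed: Usp18 (1.06), Iigp1 (-1.11), Irgm1 (-0.91), Gbp3 (-0.91), Stat2 (-0.89), Herc6 (-0.81), Dtx3l (-0.80), Zbp1 (-0.73), Tap1 (-0.64), Irf9 (-0.63), Parp14 (-0.58), Psmb9 (-0.52), Trim25 (-0.52) and Parp9 (-0.41).

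Of the 4 probe sets that carry a second symbol, which no comparison used, 3 had all Npc1-/- mice above all Npc1+/+ mice at some age: by 0.782 for Isg15 and Gm9706 at 9 weeks, by 1.31 for Oas1a and Oas1g at 9 weeks, and by 1.09 for Gbp2 and Gbp2b at 7 weeks, each at the age of its largest such difference. The fourth, of Igtp and Irgm2, was lower in Npc1-/- liver at 11 weeks (7.32 against 7.90).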

How the results depend on the processing

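Counts are of members past the threshold, with the count as reported in parentheses. At an adjusted p under 0.01 they were 1 (2), 1 (5) and 2 (4) at the 3 youngest ages, 7 (14) at 11 weeks, 3 for the change from 9 to 11 weeks (6), 13 for the variation between ages (24), 11 for the oligo (24), 0 for NAC with the Npc1 oligo (2), 2 for the control oligo (6) and 6 for the 11-week difference against the oligo (14). With a change of at least 2-fold they were 0, 0, 1, 4 (23), 9 (29) and 3 at 1 to 11 weeks, 1 for the average (28), 2 for the change from 9 to 11 weeks, 2 for the oligo, 4 with NAC (25), 0 for NAC with the Npc1 oligo, 0 for the control oligo and 2 for the last contrast. At 1 week the count was 1 with no filter, with centred arrays or with all 78 arrays, and 0 without Npc1+/+ mice 3 and 4. At 3 weeks it was 3 with all 78 arrays and 1 without Npc1+/+ mice 1 and 2. NAC with the Npc1 oligo called 4 after quantile normalization and 0 with only the 2 groups, and NAC with the control oligo 1 with only the 2 groups. The cause was not tested, except that the stricter thresholds keep fewer genes by construction. Leaving out 1 mouse gave, in order of age, 1 to 3, 2 to 11, 2 to 4, 17 to 24, 25 to 30 and 10 to 17. It gave 3 to 16 for the change from 9 to 11 weeks, 19 to 27 for the variation, 20 to 28 for the oligo, 18 to 27 with NAC, 0 to 6 for NAC with the Npc1 oligo, 0 to 2 for the interaction, 3 to 8 for the control oligo and 7 to 17 for the last contrast. With the replicate number as a block the counts were 23, 29 and 14 at 7, 9 and 11 weeks, 24 for both oligo comparisons, 22 for the variation, 32 for age in Npc1-/- (34) and 5 for the control oligo. The numbers did not pair the mice (median correlation 0.007 for the same number and 0.001 for other numbers in the age series, -0.004 and 0.002 at 12 weeks). Of 10072 alternative values of 182 single-gene results, 9533 stayed on their side of the threshold in the same direction, 539 missed it and 0 reversed. Centring arrays moved the median of all genes to -0.105 from -0.017 at 11 weeks, and the calls there from 9 higher and 5 lower to 7 higher and 8 lower.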

Other observations

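Lipid-laden macrophage markers averaged 7.07, 8.19, 8.91, 9.71, 9.93 and 10.05 in Npc1-/- liver from 1 to 11 weeks. They averaged 6.72 with the control oligo, 8.58 with the Npc1 oligo and 8.62 (7.12 to 9.17) with the Npc1 oligo and NAC. The mean of the 36 interferon response genes in the same groups was 7.14 to 7.75 in Npc1-/- liver, 7.18 with the control oligo, 7.73 with the Npc1 oligo and 7.88 with the Npc1 oligo and NAC.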
